A study of Zea mays with 24 samples.

Results

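Among 46430 features counted in each library of maize (Zea mays) endosperm, the 10 described here are 8 identifiers assigned to the JAZ repressors of the TIFY family and 2 assigned to MYC2, the transcription factor that these repressors bind. They were taken by a fixed list of identifiers, and all 10 were present in every count table. The assignment to JAZ or MYC2 is that of the list: neither the count tables nor the reference table used here pairs any of the 10 with a gene name, so it was not checked, and the members are called by their identifiers.

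Jasmonic acid (JA) is a plant hormone of wounding and defence. In its absence JAZ proteins bind MYC2 and hold its target genes down. The conjugated hormone joins JAZ to the receptor COI1, JAZ is degraded and MYC2 is released. JAZ genes are themselves among the targets of MYC2, so that in leaves and seedlings their transcripts usually rise early after JA and restore the repression. ICE1 of Arabidopsis, after which ZmICE1a is named, is a bHLH factor of the same large class as MYC2 and is known for its part in cold responses.

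The libraries, 24 in 8 groups of 3, came from pools of 5 to 10 endosperms, the storage tissue of the kernel, at 15 days after pollination, and were made by MP3RNA-seq. A genotype experiment set a ZmICE1a mutant against wild type. An IAA experiment set wild type endosperm with IAA (indole-3-acetic acid, an auxin) against wild type without it. A JA experiment held 4 groups that combined genotype with JA. The sources used here do not give the allele of the mutant, the number of lines behind it, or the doses and times of the hormones. Whether replicates are separate plants or cultures is not stated, and the p-values therefore measure no more than the spread among libraries, which may be technical. In bulk tissue, fewer cells of a type and less RNA per cell cannot be told apart.

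In the JA experiment the labels conflict for 6 libraries. Of these, 3 are titled wild type JA-treated, their genotype field reads mutant, and the names of their count tables read mutant without JA. The other 3 are titled mutant JA-untreated, their genotype field reads wild type, and the names of their count tables read wild type with JA. The treatment fields follow the titles, so that the genotype and treatment fields as a pair would make the first of these groups mutant with JA and the second wild type without JA, like the groups whose labels agree. These groups are called here the file-named untreated mutant and the file-named JA-treated wild type, and each comparison is also given by title; read by the fields, it would be none of the effects named below. All labels agreed for mutant JA-treated endosperm and wild type JA-untreated. Neither the level of ZmICE1a nor markers of endosperm could be used to check the labels, because no nuclear identifier is paired with a name.

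Libraries of the genotype experiment held 3109928 to 4875478 counts, those of the IAA experiment 432016 to 959735 and those of the JA experiment 839322 to 1917363. Depth differed between the groups of the JA experiment: 847205 to 857113 counts in mutant JA-treated, 839322 to 1353622 in the file-named untreated mutant, 1170331 to 1319107 in the file-named JA-treated wild type and 1660718 to 1917363 in wild type JA-untreated. Features with names beginning ENSRNA took 3.33% to 10.7% of the counts in the file-named untreated mutant and 1.13% to 3.61% in the other JA groups; leaving them out ended no call of a member. Levels are CPM (counts scaled to a common library total) on library sizes scaled by TMM, and tests are edgeR quasi-likelihood tests over all features of an experiment with a Benjamini-Hochberg adjusted p under 0.05.

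How far the members could be tested depended on their counts. The JAZ members Zm00001d033048, Zm00001d014249, Zm00001d026477 and Zm00001d027901 passed the low-count filter in all 3 experiments. Zm00001d033050 passed it in the genotype and JA experiments and Zm00001d020409 in the genotype experiment. The JAZ members Zm00001d027899, with 0 to 5 counts per library, and Zm00001d033049, with 0 to 18, passed it nowhere. Neither did the MYC2 members Zm00001d030028, with 0 to 9 counts, and Zm00001d047017, with 0 to 7.

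Some JAZ members were lower in mutant JA-treated endosperm than in wild type JA-untreated endosperm, the pair of groups whose labels agree and which differ in both genotype and treatment. Of the 8 JAZ members 5 were tested, of which 3 fell, 1 of them at the threshold, and 0 rose, where 4.94% of the 11265 features tested were called lower, 5.25% higher and 10.2% in either direction. Their median log2 fold change was -0.39, beside 0.01 over all features tested. The 8 JAZ members summed came to 630, 618 and 627 CPM in mutant JA-treated, against 881, 894 and 855 CPM in wild type JA-untreated, so that the mean sum fell by 28.7%. Without TMM scaling the change in the mean sum was -35.1%. The summed level is a description and was not tested.

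Zm00001d014249 showed the clearest difference. It stood at 127, 127 and 133 CPM in mutant JA-treated, at 194, 228 and 228 CPM in the file-named untreated mutant, at 236, 246 and 254 CPM in the file-named JA-treated wild type and at 238, 271 and 245 CPM in wild type JA-untreated. All 3 mutant JA-treated libraries lay below the other 9. Zm00001d014249 averaged 129 ± 3.75 CPM in mutant JA-treated and 251 ± 17.3 CPM in wild type JA-untreated (SD, n = 3 each), a log2 fold change of -0.96 ± 0.10 (SE; edgeR adjusted p = 2.95e-05). With the 6 libraries of conflicting labels left out of the fit the log2 fold change was -0.97 (edgeR adjusted p = 0.000317).

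Zm00001d033048, the JAZ member with the most counts, followed with a smaller difference. Its level was 356, 342 and 336 CPM in mutant JA-treated, 485, 456 and 475 CPM in the file-named untreated mutant, 460, 453 and 485 CPM in the file-named JA-treated wild type and 477, 461 and 420 CPM in wild type JA-untreated. Again the 3 mutant JA-treated libraries were the lowest of the 12, while the other groups overlapped. Zm00001d033048 averaged 345 ± 10.6 CPM in mutant JA-treated and 453 ± 29.6 CPM in wild type JA-untreated (SD, n = 3 each), with a log2 fold change of -0.39 ± 0.08 (SE; edgeR adjusted p = 0.00526). Without the 6 libraries of conflicting labels it was -0.40 (edgeR adjusted p = 0.0139).

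Zm00001d027901 was measured at lower counts. It had 22.4, 17.7 and 22.2 CPM in mutant JA-treated, 25.1, 19.9 and 33.6 CPM in the file-named untreated mutant, 23.0, 30.2 and 25.1 CPM in the file-named JA-treated wild type and 31.9, 32.2 and 43.2 CPM in wild type JA-untreated. The first and last of these groups did not overlap, and the other two lay between them by their means. The log2 fold change of Zm00001d027901 for this pair was -0.78 ± 0.23 (SE; edgeR adjusted p = 0.0471). This call sat at the threshold: it was lost with DESeq2 (adjusted p = 0.0986), after thinning to equal depth (edgeR adjusted p = 0.0567) and without each of the 6 libraries in turn (edgeR adjusted p from 0.057 to 0.151), and without the 6 libraries of conflicting labels it was kept (edgeR adjusted p = 0.0453).

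The other two tested JAZ members were not called in that comparison. Zm00001d026477 had 105, 119 and 116 CPM in mutant JA-treated and 117, 111 and 133 CPM in wild type JA-untreated, which overlap (log2 fold change -0.08, 95% interval -0.33 to 0.16; edgeR adjusted p = 0.715). Zm00001d033050 averaged 8.71 ± 3.21 CPM in mutant JA-treated and 6.48 ± 1.87 CPM in wild type JA-untreated (SD, n = 3 each), from 21 and 35 counts in all, and its 95% interval of -0.41 to 1.29 on the log2 scale spans a change in either direction.

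Depth moved with these groups, since the mutant JA-treated libraries held fewer counts than those of wild type JA-untreated. Depth, and any difference in handling behind it, therefore cannot be told apart from group in this pair. The shallowest library of the JA experiment was replicate 3 of the file-named untreated mutant, with 839322 counts, and its summed JAZ level was 871 CPM, beside 855 to 919 CPM in the other 8 libraries outside mutant JA-treated. After thinning all 12 libraries to that total, Zm00001d014249 (log2 fold change -0.95, edgeR adjusted p = 8.32e-05) and Zm00001d033048 (-0.39, edgeR adjusted p = 0.0108) remained lower in mutant JA-treated than in wild type JA-untreated. Thinning was added after the data were seen and makes only the totals equal. Whatever else went with depth was not tested.

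**Figure D1:**
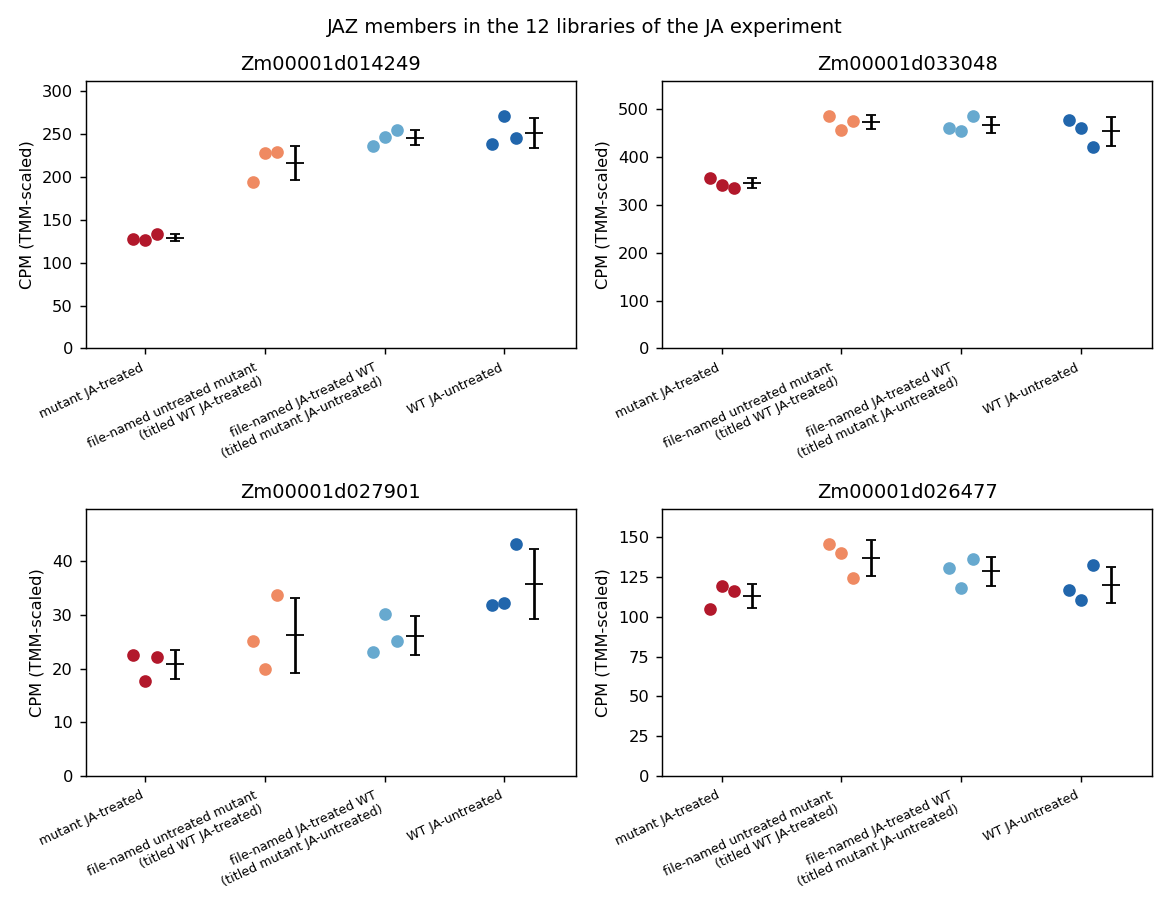
TMM-scaled CPM (vertical axes, from 0) of 4 JAZ members in the 12 libraries of the JA experiment, by group along the horizontal axes. Each point is a library, and the bar beside the points is the mean with the SD of 3 libraries. For Zm00001d014249 the 3 mutant JA-treated libraries sit between 127 and 133 CPM and the other 9 at 194 CPM or more, and for Zm00001d033048 they sit between 336 and 356 CPM and the others at 420 CPM or more.

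The same 2 members, Zm00001d014249 and Zm00001d033048, were also lower in mutant JA-treated endosperm than in each group of conflicting labels. Against the file-named untreated mutant, a comparison that by file name gives the JA response of the mutant and by title the effect of genotype under JA, 2 of 5 members fell and 0 rose, where 1.61% of features tested were called lower, 2.06% higher and 3.67% in either direction. These were Zm00001d014249 (-0.75 ± 0.10 on the log2 scale, SE, edgeR adjusted p = 0.000565) and Zm00001d033048 (-0.45 ± 0.08 SE, edgeR adjusted p = 0.00451). Zm00001d026477 had a log2 fold change of -0.27 (95% interval -0.52 to -0.02) without overlap of the groups, and did not pass the adjusted threshold (edgeR adjusted p = 0.265). Here and below, lack of overlap in a member that was not called is a description only. The share of all features without overlap was not counted.

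Against the file-named JA-treated wild type, by file name the effect of genotype under JA and by title the JA response of the mutant, 2 of 5 members fell and 0 rose, where 1.68% of features were called lower, 1.23% higher and 2.91% in either direction. Zm00001d014249 fell by 0.93 on the log2 scale (SE 0.10, edgeR adjusted p = 0.00012) and Zm00001d033048 by 0.44 (SE 0.08, edgeR adjusted p = 0.00763). Zm00001d027901 lay lower in all 3 mutant JA-treated libraries than in the 3 file-named JA-treated wild type ones and was not called (log2 fold change -0.33, edgeR adjusted p = 0.591). The comparisons share the mutant JA-treated libraries and are not independent of each other. Both calls were kept without any 1 of the 6 libraries in each of these comparisons.

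The groups of conflicting labels gave no call against wild type JA-untreated. The file-named JA-treated wild type was set against wild type JA-untreated. By file name this is the JA response of wild type, and by title a genotype effect without JA. There 0 of 5 members passed the threshold in edgeR or in DESeq2, where 2.73% of features were called, 1.77% higher and 0.959% lower. Unadjusted, 0 of the 5 members and 1580 of the 11265 features tested had an edgeR p under 0.05. Log2 fold changes there were 0.04 for Zm00001d033048 (95% interval -0.13 to 0.21), -0.03 for Zm00001d014249 (-0.25 to 0.18), 0.10 for Zm00001d026477 (-0.15 to 0.34) and -0.45 for Zm00001d027901 (-0.90 to 0.0081). The highest upper bound among the 5 was 0.85, that of Zm00001d033050, which rests on 22 counts in the file-named JA-treated wild type and 35 in wild type JA-untreated.

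In the file-named untreated mutant against wild type JA-untreated, by file name the effect of genotype without JA and by title the JA response of wild type, 0 of 5 members were called by edgeR or DESeq2, where 5.2% of features were called, 2.74% higher and 2.46% lower. Of the 5 members 1, Zm00001d014249, had an unadjusted edgeR p under 0.05, as did 2165 of the 11265 features tested. Its adjusted p was 0.256 by edgeR (log2 fold change -0.22 ± 0.10 SE, groups without overlap). Zm00001d033048 was at 0.06 (95% interval -0.11 to 0.23), Zm00001d026477 at 0.19 (-0.06 to 0.43) and Zm00001d027901 at -0.46 (-0.92 to 0.0015). The highest upper bound was again that of Zm00001d033050, at 0.75, below the log2 value of 1 that marks a 2-fold rise.

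Set directly against each other, the conflicting groups gave 0 called members of 5 in edgeR and in DESeq2. Of all features 4.32% were called, 2.74% higher and 1.58% lower, so that 0 of 5 is near the share over all features. Unadjusted, 0 of the 5 members and 1848 of the 11265 features tested had an edgeR p under 0.05. Zm00001d014249 was 245 ± 9.02 CPM in the file-named JA-treated wild type and 216 ± 19.8 CPM in the file-named untreated mutant (SD, n = 3 each; log2 fold change 0.18, 95% interval -0.03 to 0.40, edgeR adjusted p = 0.407), with no overlap between the libraries. For Zm00001d033048 the log2 fold change was -0.02 (-0.19 to 0.15), for Zm00001d026477 -0.09 (-0.34 to 0.16) and for Zm00001d027901 0.01 (-0.48 to 0.51). The summed JAZ level was 871, 861 and 919 CPM in the file-named JA-treated wild type and 874, 866 and 871 CPM in the file-named untreated mutant, and the libraries of the groups overlapped. This overlap depends on the TMM scaling. Without it the sums were 808, 779 and 846 CPM against 850, 878 and 896 CPM, which do not overlap. Against wild type JA-untreated the mean sum of the file-named JA-treated wild type changed by 0.82% with scaling and by -10.4% without it. These levels do not show which of the conflicting labels holds.

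By title and by file name the pattern of calls is the same. The comparison that is the JA response of wild type had 0 of 5 tested members called by edgeR on either of these readings. The effect of genotype without JA likewise had 0 of 5. In these comparisons 2.73% and 5.2% of all features were called, so that 0 of 5 is near the share over all features. The JA response of the mutant and the effect of genotype under JA each had Zm00001d014249 and Zm00001d033048 called lower on either reading. There 1.61% and 1.68% of all features were called lower. Read by the genotype and treatment fields, mutant JA-treated and the file-named untreated mutant would carry the same labels, and these members differed between them. The file-named JA-treated wild type and wild type JA-untreated would also carry the same labels, and 0 of 5 tested members were called between them. None of the 5 members tested was called higher in any of the 7 comparisons of the JA experiment. Over all features tested, 0.213% to 5.25% were called higher there. The members that did not pass the filter, both MYC2 members among them, could not be called.

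**Figure D2:**
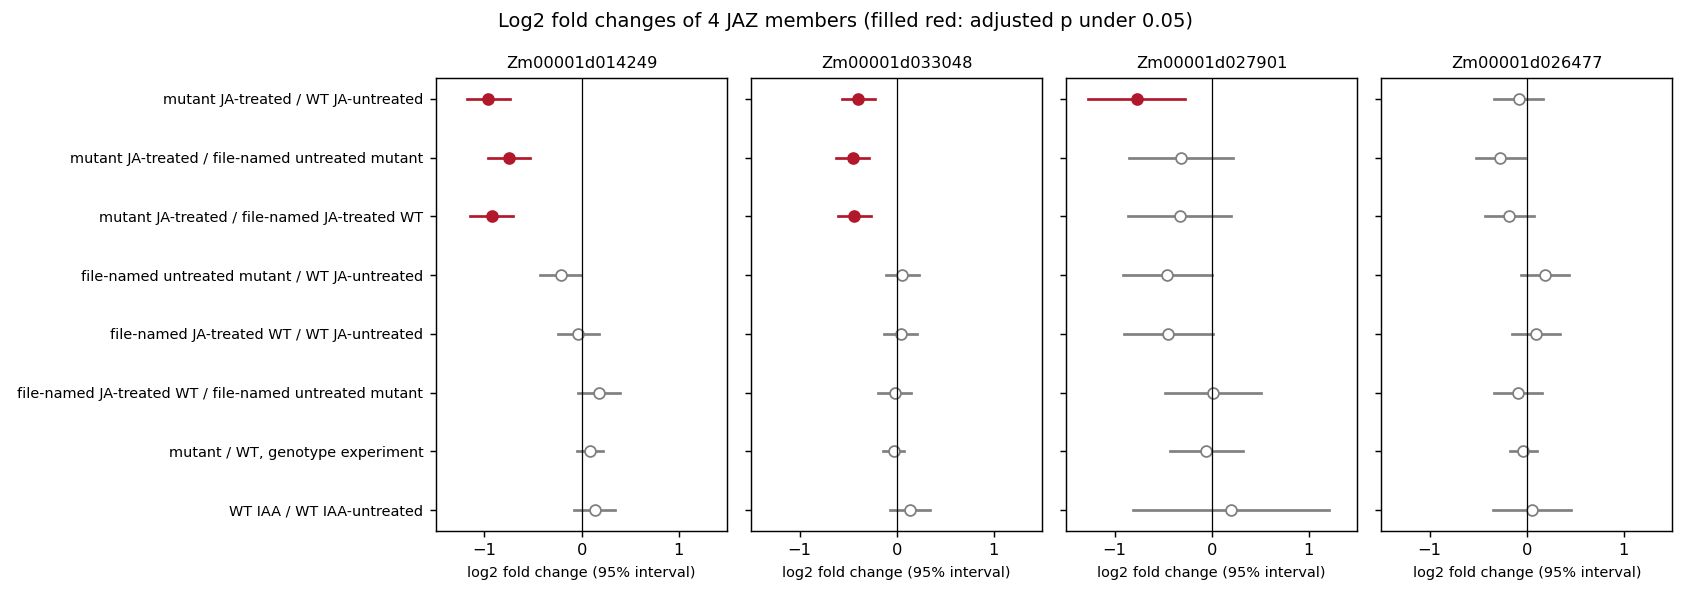
Log2 fold changes (horizontal axes, points) with 95% intervals (lines) of 4 JAZ members in 8 comparisons (rows; the group before the stroke over the group after it); filled red marks an edgeR adjusted p under 0.05. The calls lie in the 3 rows of mutant JA-treated, where Zm00001d014249 is at -0.96, -0.75 and -0.93, and the other 5 rows hold none.

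The non-additive contrast asks whether mutant JA-treated departs from what the file-named untreated mutant and the file-named JA-treated wild type add up to, and has the same value by title and by file name. Of 5 members 1 was called lower and 0 higher, where 0.417% of features were called lower, 0.213% higher and 0.63% in either direction. The contrast was -0.71 ± 0.14 (SE, log2 scale) for Zm00001d014249 (edgeR adjusted p = 0.0365) and -0.50 ± 0.11 for Zm00001d033048 (edgeR adjusted p = 0.0689). The call of Zm00001d014249 was lost in 10 of the 12 fits that left out 1 library (edgeR adjusted p up to 0.13), and was kept when the library omitted was replicate 2 of wild type JA-untreated or replicate 1 of the file-named untreated mutant. Zm00001d026477 was at -0.37 (95% interval -0.72 to -0.02, edgeR adjusted p = 0.42), Zm00001d027901 at 0.13 (-0.58 to 0.84) and Zm00001d033050 at 0.53 (-0.72 to 1.78).

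The make-up of the JAZ counts also differed between groups. Zm00001d014249 made up 20.6% ± 0.565 of the JAZ counts in mutant JA-treated, 24.9% ± 2.35 in the file-named untreated mutant, 27.8% ± 0.794 in the file-named JA-treated wild type and 28.6% ± 1.65 in wild type JA-untreated (SD, n = 3 each). Its highest share in mutant JA-treated, 21.3%, was below its lowest in the other groups of the JA experiment, 22.2%. In the genotype experiment its share was as low, 20.7% ± 0.65 in the mutant and 19.4% ± 0.635 in wild type (SD, n = 3 each). Zm00001d026477 took a larger mean share, with 18.1% ± 1.37 in mutant JA-treated, against 13.7% ± 1.61 in wild type JA-untreated (SD, n = 3 each). These are shares of counts, not of transcript numbers per length, they were not tested, and they do not depend on the scaling of library sizes.

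**Figure D3:**
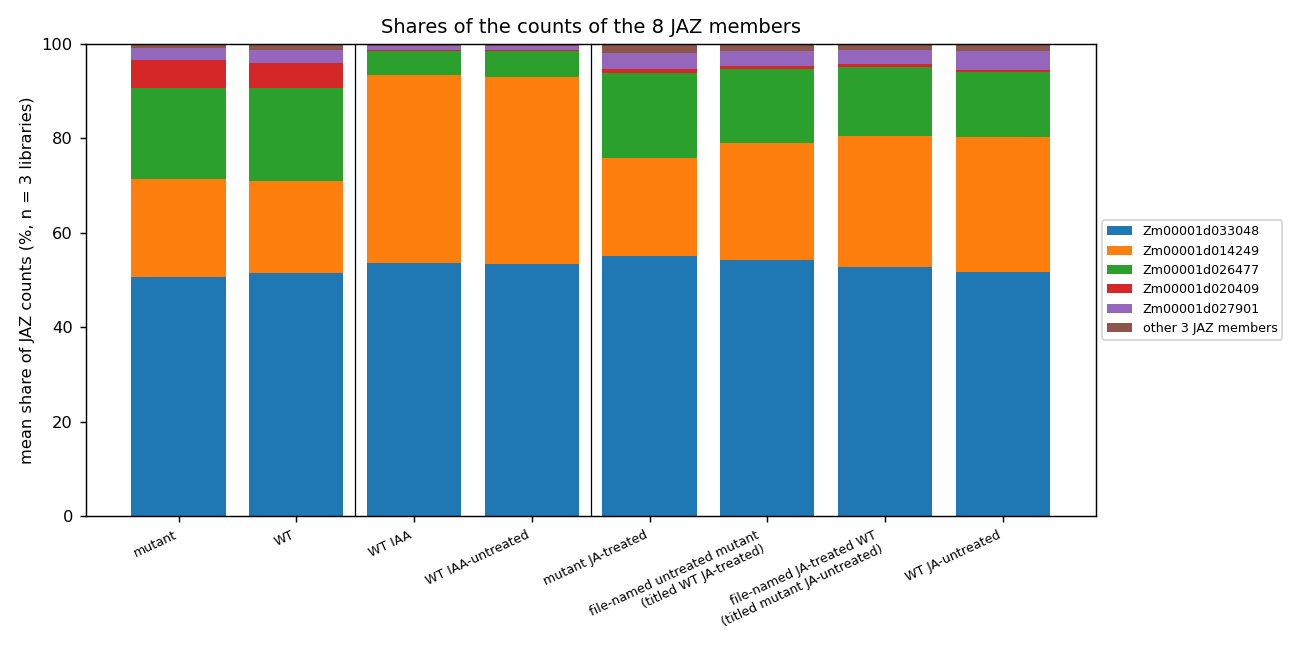
Mean share of the summed JAZ counts (vertical axis, percent, 3 libraries per bar) taken by each JAZ member in the 8 groups (horizontal axis); vertical lines part the genotype, IAA and JA experiments. Zm00001d033048 holds a near constant share of 50.7% to 55.1%, while Zm00001d014249 takes 19.4% to 39.8%.

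In the genotype experiment, where all labels agree, no JAZ member was called between mutant and wild type. Of 6 members tested 0 passed the threshold in edgeR or in DESeq2, where 6.19% of 17841 features were called, 3.23% higher and 2.96% lower. A count of 0 of 6 is near the share over all features. Unadjusted, 0 of these members and 3432 of the features had an edgeR p under 0.05. Zm00001d033048 had 214, 229 and 211 CPM in the mutant, against 214, 227 and 227 CPM in wild type, and its log2 fold change of -0.03 had a 95% interval of -0.14 to 0.08. Zm00001d014249 had 85.0, 92.2 and 89.4 CPM in the mutant, against 80.6, 88.0 and 82.8 CPM in wild type (log2 fold change 0.09, 95% interval -0.05 to 0.22). Both intervals are narrow, and they lie above the log2 fold changes of -0.39 and -0.96 that these members had between mutant JA-treated endosperm and wild type JA-untreated; the difference between the experiments was not tested.

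The other 4 members tested there also overlapped between mutant and wild type. Zm00001d020409 averaged 25.2 ± 3.98 CPM in the mutant and 23.0 ± 1.6 CPM in wild type (SD, n = 3 each, as for the next members). Zm00001d026477 averaged 83.1 ± 5.33 CPM in the mutant and 85.2 ± 4.15 CPM in wild type. Zm00001d027901 averaged 11.1 ± 1.6 CPM in the mutant and 11.7 ± 0.498 CPM in wild type. Zm00001d033050 had 20 counts in the 3 mutant libraries and 44 in the 3 wild type ones, with a log2 fold change of -0.76 and a wide 95% interval of -1.61 to 0.08 (edgeR adjusted p = 0.314).

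No tested JAZ member was called between IAA-treated and untreated endosperm. Of 4 members 0 passed the threshold in edgeR or in DESeq2, where 2.42% of 7687 features were called, 1.25% higher and 1.17% lower. A count of 0 of 4 is near the share over all features. Unadjusted, 0 of these members and 1121 of the features had an edgeR p under 0.05. Zm00001d033048 had 1222, 1324 and 1481 CPM with IAA, against 1273, 1246 and 1137 CPM without it (log2 fold change 0.14, 95% interval -0.06 to 0.34). Zm00001d014249 had 924, 1019 and 1047 CPM with IAA, against 977, 852 and 896 CPM without it (0.13, -0.08 to 0.34). Zm00001d026477 was at 0.05 (-0.35 to 0.46) and Zm00001d027901 at 0.20 (-0.81 to 1.21), the last from 29 counts with IAA and 38 without.

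Between the experiments the same tissue and stage differed more in summed JAZ level than the groups within them did. On library sizes scaled over all 24 libraries together, the JAZ members summed to 340 to 358 CPM in wild type of the genotype experiment, 1917 to 2139 CPM in wild type without IAA and 995 to 1049 CPM in wild type JA-untreated. Zm00001d033048 was highest in the IAA experiment, at 1101 ± 116 CPM with IAA and 1076 ± 72.8 CPM without it. Next came the file-named untreated mutant (553 ± 17.2), the file-named JA-treated wild type (542 ± 20.5) and wild type JA-untreated (529 ± 35.8), then mutant JA-treated (399 ± 13.2), and lowest the genotype experiment with 176 ± 7.65 CPM in the mutant and 181 ± 6.28 CPM in wild type (SD, n = 3 each). Neighbours in that order differed by a test within an experiment only where mutant JA-treated stood below the other JA groups.

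Zm00001d014249 kept the same order of experiments with a wider span, 802 ± 57.1 CPM in wild type without IAA, 294 ± 21.3 CPM in wild type JA-untreated and 68.3 ± 3.21 CPM in wild type of the genotype experiment (SD, n = 3 each). Zm00001d020409 ran the other way: it had 17.1 to 23.3 CPM in the 6 libraries of the genotype experiment and 12.9 CPM or less in all 18 libraries of the IAA and JA experiments. Zm00001d027901 was highest in wild type JA-untreated (41.8 ± 7.42 CPM) and lowest in the mutant of the genotype experiment (8.97 ± 1.32 CPM). The experiment, the depth and any difference in handling cannot be told apart in these levels, and no test was made between experiments.

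**Figure D4:**
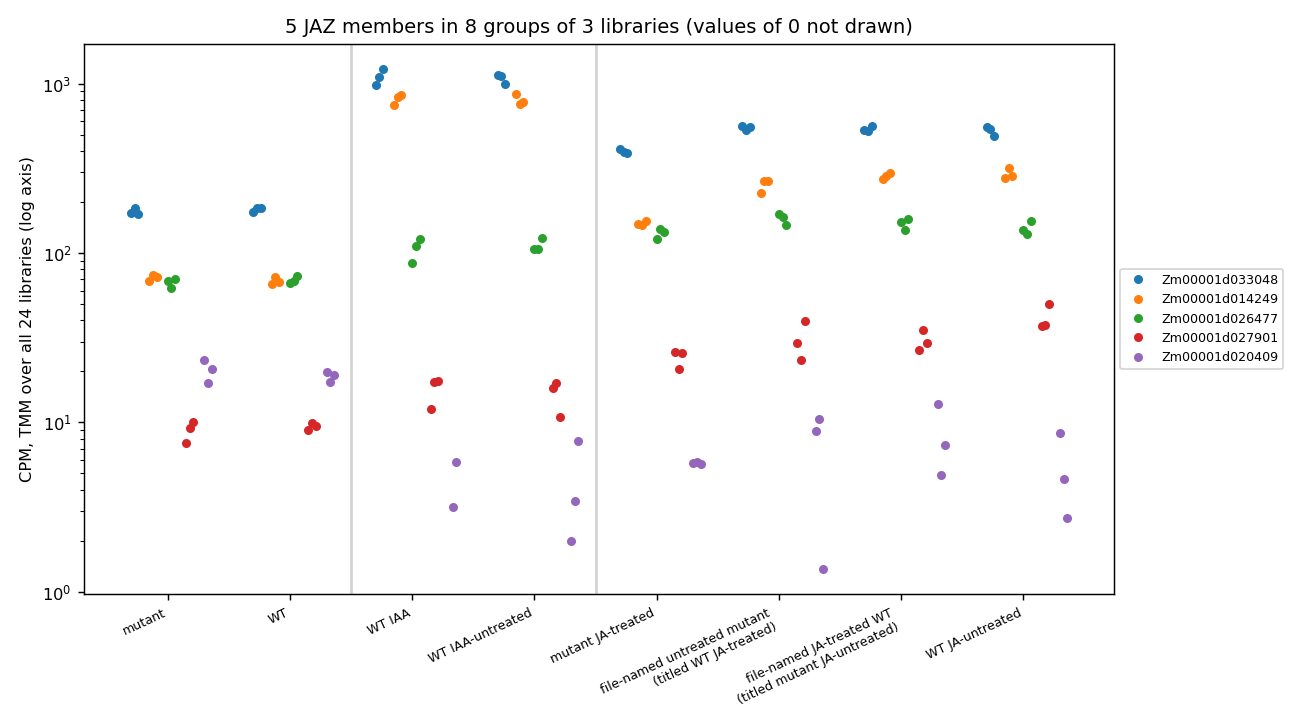
CPM on TMM library sizes over all 24 libraries (vertical axis, log scale) of 5 JAZ members in the 8 groups (horizontal axis), a point per library, with grey lines between experiments and values of 0 not drawn. Zm00001d033048 runs from 171 to 186 CPM in the genotype experiment and from 989 to 1222 CPM in the IAA experiment, while Zm00001d020409 is highest in the genotype experiment.

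Both MYC2 members were near the limit of detection everywhere. Zm00001d030028 and Zm00001d047017 together held 7 counts over the 3 mutant JA-treated libraries, 11 over the file-named untreated mutant, 16 over the file-named JA-treated wild type and 15 over wild type JA-untreated. In the genotype experiment they held 23 counts in the mutant and 36 in wild type, and in the IAA experiment 3 counts with IAA and 4 without. Zm00001d030028 had 0 counts in all 3 mutant JA-treated libraries, which allows up to 1.25 CPM over the group at 3 counts, beside 6 counts in wild type JA-untreated, and 0 counts with IAA, which allows up to 2.02 CPM, beside 3 without. These bounds cover counting error only. They do not cover reads that the annotation, which the sources used here do not give, may have missed. With no low-count filter, edgeR called neither MYC2 member in any of the 9 comparisons. At these counts a large change could have been missed as well as a small one, so the lack of calls does not show equal levels.

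Copies of JAZ genes that resemble each other could share or split reads, since the sources used here do not give how such reads were counted. Neighbouring identifiers form runs among the members, Zm00001d027899 with Zm00001d027901 and Zm00001d033048 with Zm00001d033049 and Zm00001d033050. Summed within each run, the first had a log2 fold change of -0.76 ± 0.23 (SE, edgeR adjusted p = 0.046) and the second of -0.38 ± 0.08 (SE, edgeR adjusted p = 0.00679) in mutant JA-treated over wild type JA-untreated, and neither was called in the genotype or IAA experiment.

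Among 7135 features compared, Zm00001d018309 and Zm00001d026391 were the non-members whose changes were most like those of the summed JAZ level, by the root mean square difference of log2 fold changes over 5 comparisons (0.05 and 0.07). In mutant JA-treated against wild type JA-untreated they were at -0.39 and -0.41, and in the other 4 comparisons Zm00001d018309 lay between -0.05 and 0.10 and Zm00001d026391 between -0.0027 and 0.23. The files do not pair these identifiers with names.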

How the data were processed

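Each library came as a table of raw counts, whole numbers for 46430 features, used as the authors deposited them. Trimmomatic 0.39 and HISAT2 2.2.1 are named per the submitters' processing notes; the sources used here do not give the counter, genome build, annotation, use of strand or treatment of duplicates, so overlapping genes and similar copies are uncertain. Samples were grouped by title, and file names were used only to name the second reading of 6 libraries. Members and lists were chosen with earlier results of these data known. Models were fitted in edgeR 4.0.16 (R 4.3.3) with TMM, filterByExpr (minimum count 10), quasi-likelihood fits and 2-sided tests, each experiment on its own, with all 4 groups of the JA experiment in 1 fit. A standard error is the absolute log2 fold change over the square root of F, and 95% intervals use the moderated degrees of freedom. Alternatives were DESeq2 1.42.0, RLE scaling, no filter, library sizes that omit the top 50 features by abundance, no ENSRNA features, runs of neighbours summed, all 24 libraries in 1 fit, a replicate block, each library left out, no libraries of conflicting labels and, added after seeing the data, thinning to 839322 counts. The code was tested on simulated data. All 10 members are named; of the planned rule for similar non-members, the 2 most alike that fell are given, because the summed JAZ level fell, a change made after the data were seen. The lists of pathway and tissue marker symbols had 0 members paired with identifiers and were not used. Replicate pairs within groups differed by 1.76 to 6.44 times sampling noise (chi-square per degree of freedom, 24 pairs), so none was a copy.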

Additional observations from a re-analysis of the deposited data

Results flagged for a closer look

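Only 1 result met a rule for a closer look. In the JA experiment, read by title or by file name, a test of whether genotype and JA effects add up passed the threshold. That result was the non-additive contrast of Zm00001d014249, at -0.71 on the log2 scale (edgeR adjusted p = 0.0365). It was called under 8 of 9 alternatives (edgeR or DESeq2 adjusted p from 0.00201 to 0.0584). In the 12 fits without 1 library it was called in only 2 (edgeR adjusted p from 0.0216 to 0.13). The 3 mutant JA-treated libraries lay below the other 9. Groups of 3 are too small for the test of outlying samples, which was not made.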

How the results depend on the processing

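The number of members called in mutant JA-treated over wild type JA-untreated endosperm, 3 as reported, was 2 with DESeq2, when thinned and without any 1 library; in the other pairwise comparisons it was the same under every alternative run. The number called in the non-additive contrast, 1 as reported, was 2 with DESeq2, 2 without ENSRNA features and 2 with all 24 libraries in 1 fit, Zm00001d033048 being added (adjusted p = 0.00395, 0.0117 and 0.0455), and ran from 0 to 1 without 1 library. With the replicate number as a block it was 0 (Zm00001d014249 at edgeR adjusted p = 0.0584), and the block changed no other call of a member. The cause of these moves was not tested. Correlations of same-numbered libraries, with group means removed, ran from -0.089 to 0.1, and those of differently numbered libraries from -0.0997 to 0.152. With 3 libraries per group, such values show no pairing by number and cannot exclude it. Of 542 values of uncalled members under alternatives, 25 took the other sign and none of these was called. They were Zm00001d026477 with IAA (-0.036 without filter, -0.050 with all 24 libraries; -0.060 to 0.15 without 1 library); in the genotype experiment, without 1 library, Zm00001d026477 (-0.070 to 0.016) and Zm00001d027901 (-0.15 to 0.043); in the file-named JA-treated wild type against wild type JA-untreated Zm00001d033050 (-0.016 without filter; -0.29 to 0.22 without 1 library), Zm00001d014249 (0.079 thinned; -0.076 to 0.024), Zm00001d026477 (-0.0066 thinned) and Zm00001d033048 (-0.0062 to 0.077); in the file-named untreated mutant against wild type JA-untreated Zm00001d033050 (-0.33 to 0.084); between the conflicting groups Zm00001d027901 (-0.050 thinned; -0.14 to 0.21), Zm00001d033048 (0.0010 thinned; -0.046 to 0.0045) and Zm00001d033050 (-0.18 to 0.29); and in the non-additive contrast Zm00001d027901 (-0.036 to 0.32). Over all features, calls in the genotype comparison were 1104 as reported, 537 with DESeq2, 146 with all 24 libraries in 1 fit and 701 to 841 without 1 library. With IAA they were 186, against 319 without ENSRNA features, 364 without filter, 1048 in the fit of 24 libraries and 78 to 191 without 1 library. In the non-additive contrast they were 71, against 127 with DESeq2, 124 without ENSRNA features, 289 without filter, 47 with the block and 25 to 57 without 1 library. Against wild type JA-untreated, the file-named untreated mutant had 586, and 366 thinned, and the file-named JA-treated wild type 307, and 475 without filter. The MYC2 members, Zm00001d027899 and Zm00001d033049, and outside the genotype experiment Zm00001d020409, had too few counts to pass the filter; level and depth cannot be told apart in this.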
